A study of Mus musculus with 12 samples.

Results

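Nodal and Activin signalling was followed through 8 genes across mouse embryonic stem (ES) cells, cultured epiblast (cEpi) and epiblast cells reprogrammed to an ES-like state (rEpiES). The members were chosen by name, as the probes whose only gene symbol in the platform annotation was Nodal, Inhba, Furin, Tdgf1, Acvr2a, Acvr2b, Lefty1 or Lefty2. The annotation named 7 of the 8 (Lefty1 was not named), with 1 probe each, out of 13840 genes with a named probe. All 7 probes were detected on all 12 arrays, at a signal-to-noise score of 7.88 to 120.4. A quality code other than 0, of unstated meaning, stood on 1 array for each of Tdgf1, Acvr2a, Acvr2b and Lefty2.

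The series held 12 Applied Biosystems 1-colour whole-genome arrays, 3 for each of 4 groups: ES, cEpi, rEpiES at passage 4 and rEpiES at passage 24. The embryos behind them came from 129/sv or ROSA 129/Sv mothers and fathers carrying the Oct4-△PE-EGFP transgene, a GFP reporter that is active in ES cells and silent in epiblast, and the ES labels repeat this description. Epiblast was dissected by morphology from embryos at embryonic day 5.5 to 7.5 and dissociated. Per the labels, the rEpiES cells were cultured in medium with 20% serum and LIF (1000 U/ml) over fibroblast feeders from mouse embryos, stopped from dividing with mitomycin. GFP-positive cells appeared in these cultures at 14 to 35 days and were isolated and expanded, so rEpiES cells are a population selected for the reporter. The culture of the cEpi and ES cells is not described there, and neither is the number of lines or clones in a group. Whether the 3 samples of a group were separate cultures is not stated, and the p-values hence reflect only how far these samples spread, which may be technical.

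Nodal and the activins are secreted ligands of the TGF-beta superfamily that share type II receptors, type I receptors and the intracellular effectors SMAD2 and SMAD3. Nodal is made as a precursor that convertases such as furin cleave, it needs a Cripto-type co-receptor, and it is held back by the Lefty proteins, which are themselves induced by the pathway. Epiblast-derived stem cells need Nodal or Activin signalling to stay pluripotent, whereas mouse ES cells are maintained by LIF.

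Between 12061 and 16537 of 33012 probes were detected per array, fewest on ES arrays and most on cEpi arrays, and the median SD of log2 values within a group was 0.24 in ES against 0.09 to 0.11 in the other groups. The naive pluripotency genes (7 of 9 named) summed to a linear signal of 26.8 to 30.3, in units of 1000, in cEpi, 345 to 377 in ES and 496 to 562 in the rEpiES groups, and Pou5f1 and Sox2 were detected on every array. All 5 post-implantation epiblast genes were detected on every array. In cEpi against ES 3 of them were higher (Fgf5, Otx2 and Sox3) and 2 lower (Pou3f1 and Dnmt3b), beside 40.6% and 28.8% of all tested genes. Their sum, in the same units, was highest in ES (719 to 878), with 598 to 616 in cEpi, 422 to 447 at passage 24 and 249 to 260 at passage 4. The fibroblast list (20 of 22 named) summed in the same units to 1856 to 1891 in cEpi, 315 to 462 in ES, 409 to 417 in rEpiES passage 4 and 235 to 246 in rEpiES passage 24. Of that list, Fap and Pdgfra were detected only in cEpi (Pdgfra on 2 arrays), and Thy1 on all arrays except those of ES. The primitive and visceral endoderm list (14 of 15 named) summed to 647 to 663 in cEpi, 163 to 174 in ES, 153 to 168 in passage 4 and 79.8 to 87.4 in passage 24. Its brightest gene in every group, Sparc, weighed most in these sums (mean log2 signal 18.84 in cEpi, 16.93 in ES, 16.99 at passage 4 and 16.12 at passage 24). Of 10 genes of that list tested, 8 were higher and 0 lower in cEpi than in ES, beside 40.6% and 28.8% of all tested genes. Gata4, Foxa1, Dab2 and Sox7 could be tested only because all cEpi arrays detected them, as no other group did throughout. The higher level of Gata4, Foxa1 and Dab2 in cEpi was thus partly set by the detection filter, and Sox7 was not called. Apoa1 and Lama1 of that list were detected on no array, and Afp and Ttr on too few to be tested. In such bulk samples, fewer cells of a type and less RNA per cell cannot be told apart. The array files come in 2 layouts, of which the first holds ES and rEpiES passage 24 and the second holds cEpi and rEpiES passage 4. Comparisons of passage 4 with cEpi and of passage 24 with ES therefore lie within a layout, while in the other 4 comparisons layout and group cannot be told apart.

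**Figure D1:**
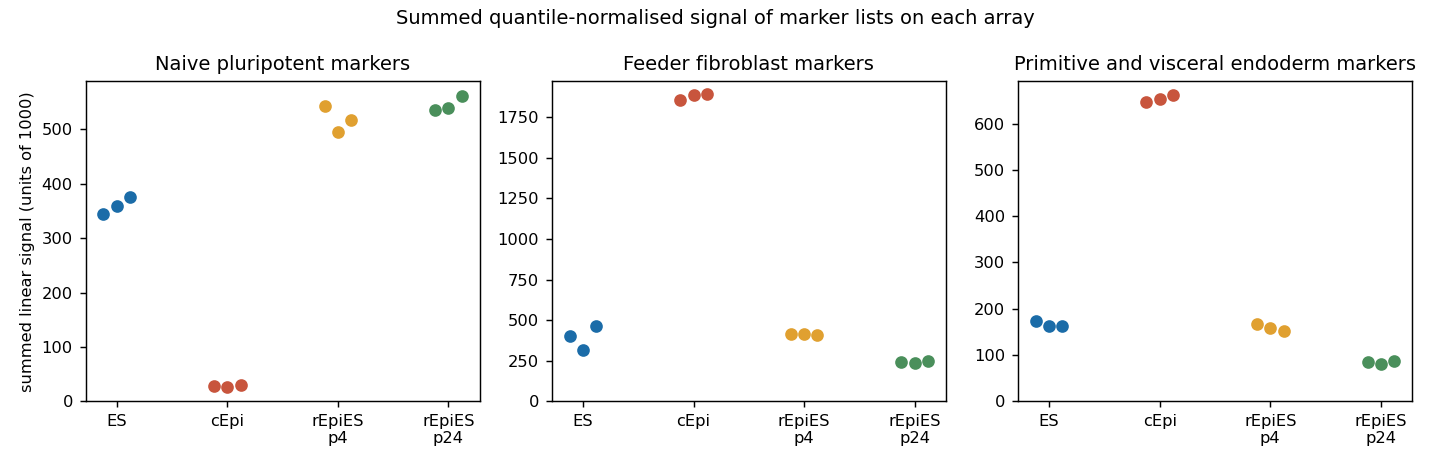
Summed linear quantile-normalised signal, in units of 1000, of the naive pluripotency, feeder fibroblast and endoderm marker lists on each array, with a point per array and 3 arrays per group. The cEpi arrays have the lowest naive sum (26.8 to 30.3) and the highest fibroblast sum (1856 to 1891), and passage 24 has the lowest fibroblast sum (235 to 246).

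Furin differed most between the groups, with group means spanning 2.87 log2 units, and Nodal itself least, spanning 0.43. Lefty2 spanned 1.70, Inhba 1.56, Tdgf1 1.34, Acvr2a 0.88 and Acvr2b 0.79 log2 units. The levels of Furin and Inhba both ran in the order cEpi, passage 4, ES, passage 24 from high to low. Lefty2 ran in the order cEpi, passage 4, passage 24, ES, while Tdgf1 ran the opposite way, in the order ES, passage 24, passage 4, cEpi. Values below are the authors' log2 quantile-normalised signals, and a difference of 1 is 2-fold. Levels are compared only within a probe, since probes differ in brightness for reasons other than RNA amount.

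**Figure D2:**
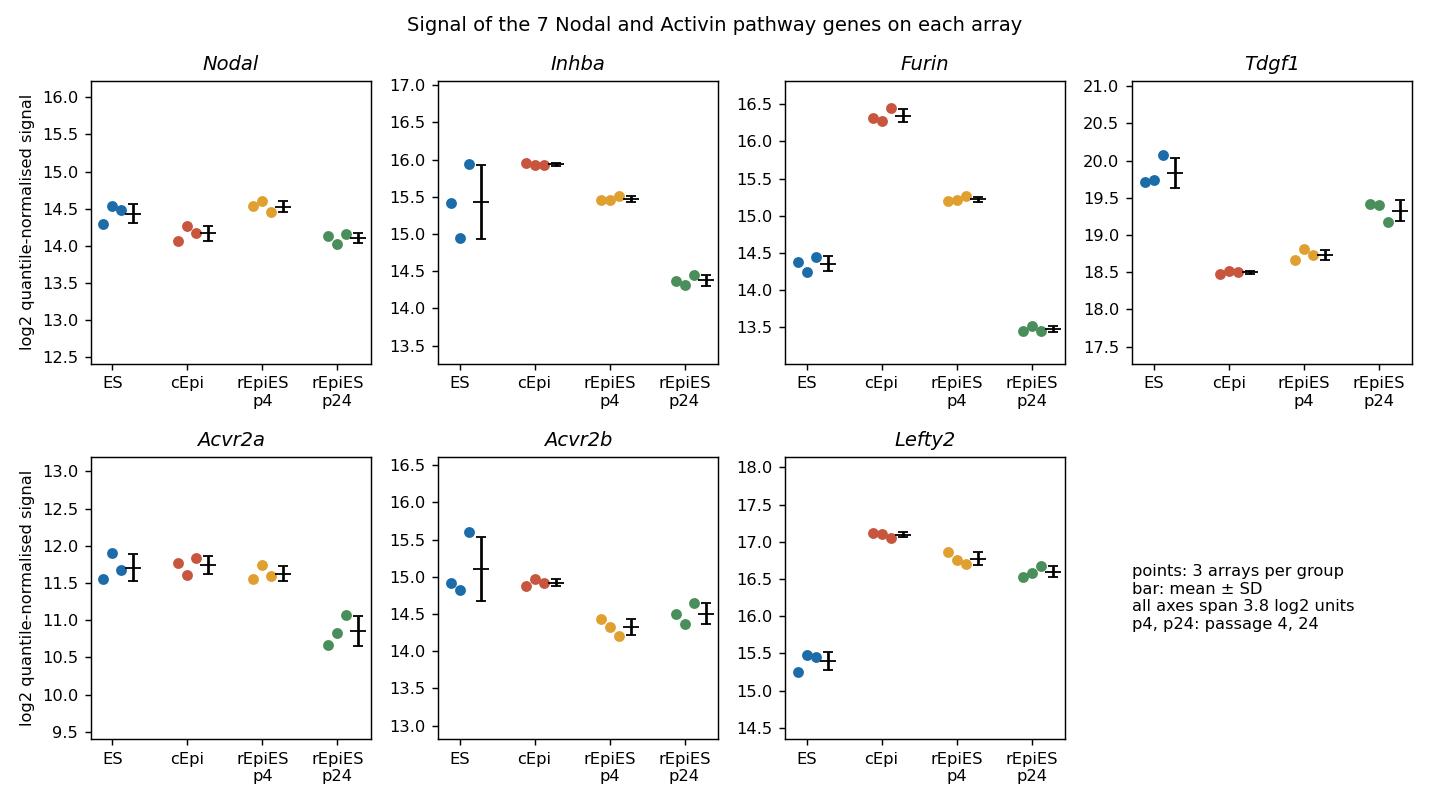
Log2 quantile-normalised signal of the 7 genes on each array (points, 3 per group) with the mean ± SD of each group (bars), every panel spanning the same number of log2 units. Furin is highest in cEpi (16.35) and lowest in passage 24 (13.48), Tdgf1 is highest in ES (19.84), Lefty2 is lowest in ES (15.39), and the Nodal groups lie within 0.43 of each other.

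Promoters are shown for Furin and Inhba, whose levels had the same order of groups, for Tdgf1, whose order was the opposite of that of Lefty2, and for Acvr2a, whose passage 24 arrays alone lay below the rest. Each runs from 250 bases before to 50 bases after the annotated start, and is taken from RefSeq (GRCm38.p6), which held a promoter for 6 of the 7 genes. They are Furin at chr7:80405387-80405686 on the minus strand (the more distal of 2 annotated starts), Inhba at chr13:16011601-16011900 on the plus strand, Tdgf1 at chr9:110946109-110946408 on the minus strand and Acvr2a at chr2:48813859-48814158 on the plus strand. Capitals mark CAGAC, the core element bound by SMAD3 and SMAD4, or GTCTG, the same letters on the other strand.
Furin promoter: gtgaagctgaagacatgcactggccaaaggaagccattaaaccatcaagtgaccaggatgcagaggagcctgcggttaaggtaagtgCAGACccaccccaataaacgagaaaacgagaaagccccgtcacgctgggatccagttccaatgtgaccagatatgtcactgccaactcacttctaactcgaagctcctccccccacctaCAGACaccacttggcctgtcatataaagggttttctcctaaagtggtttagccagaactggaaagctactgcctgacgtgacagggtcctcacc
Inhba promoter: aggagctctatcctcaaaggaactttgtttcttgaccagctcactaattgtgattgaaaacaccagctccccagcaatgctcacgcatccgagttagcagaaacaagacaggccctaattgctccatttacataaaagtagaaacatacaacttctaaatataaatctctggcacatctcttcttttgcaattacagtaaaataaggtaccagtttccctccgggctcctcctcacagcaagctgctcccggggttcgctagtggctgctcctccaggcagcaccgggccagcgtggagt
Tdgf1 promoter: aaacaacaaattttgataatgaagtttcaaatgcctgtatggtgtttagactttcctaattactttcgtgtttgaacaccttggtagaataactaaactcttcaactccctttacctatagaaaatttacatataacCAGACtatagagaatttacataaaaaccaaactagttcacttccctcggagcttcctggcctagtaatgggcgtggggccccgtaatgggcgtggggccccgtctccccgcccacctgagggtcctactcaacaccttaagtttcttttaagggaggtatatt
Acvr2a promoter: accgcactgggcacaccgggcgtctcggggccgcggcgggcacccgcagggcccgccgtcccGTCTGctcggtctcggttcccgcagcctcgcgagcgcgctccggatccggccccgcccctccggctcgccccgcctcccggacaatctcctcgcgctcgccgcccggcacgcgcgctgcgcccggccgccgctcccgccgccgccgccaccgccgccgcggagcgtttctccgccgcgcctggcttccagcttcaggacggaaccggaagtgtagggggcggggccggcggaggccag

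Furin held CAGAC at -163 to -159 and at -44 to -40 relative to the start, Tdgf1 at -113 to -109, and Acvr2a on the other strand at -188 to -184. Of the promoters not shown, that of the other Furin start held it at -190 to -186, and Acvr2b on the other strand at -233 to -229. The Inhba promoter, like that of Nodal, held none. The letters CAGAC, on either strand, are in 49.6% of 32851 promoters of this length, so their presence here is a description only. TATAAA, the letters of a TATA box, lay at -23 to -18 in Furin and at -91 to -86 in Inhba, and 13.6% of promoters held them on either strand. TGTGGATT, a form of the element bound by the SMAD partner FOXH1, was in none of the members' promoters and in 0.855% of all, and ATGCAAAT, the octamer of OCT4, was in none and in 1.74%. None of the marked elements overlapped another. The Acvr2a promoter had 54 CpG dinucleotides and a GC content of 80.3%, against 7 CpG in each of the 3 others shown and a median of 7 over all promoters. GC content was 41.7% in Tdgf1, 47.7% in Inhba and 51.3% in Furin, beside a median of 52.7%. The other Furin start, at chr7:80402763-80403062, had 51 CpG and a GC content of 82.3%, and the arrays do not tell the starts apart.

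Nodal, the ligand after which the pathway is named (chromosome 10), was at 14.30, 14.53 and 14.48 on the ES arrays and at 14.07, 14.27 and 14.18 on the cEpi arrays. It was at 14.54, 14.60 and 14.45 at passage 4 and at 14.13, 14.02 and 14.16 at passage 24. The passage 4 and ES arrays overlapped, and so did the cEpi and passage 24 arrays, with the first pair above the second. Means were 14.43 ± 0.12 (SD, n = 3) in ES, 14.17 ± 0.10 in cEpi, 14.53 ± 0.07 at passage 4 and 14.10 ± 0.07 at passage 24. Nodal was higher at passage 4 than in cEpi by 0.36 ± 0.08 (standard error, adjusted p = 0.0047), and lower at passage 24 than at passage 4 by 0.43 (log2 change -0.43, adjusted p = 0.00327). It was also lower in cEpi than in ES (log2 change -0.26, adjusted p = 0.0191) and at passage 24 than in ES (log2 change -0.33, adjusted p = 0.00683). Passage 4 did not differ from ES (adjusted p = 0.369), nor passage 24 from cEpi (adjusted p = 0.502), beyond the spread between arrays. These small differences depended on the scaling of the arrays. With median scaling in place of quantile normalisation the change of Nodal became 0.07 at passage 4 against cEpi (adjusted p = 0.719), 0.35 in cEpi against ES (adjusted p = 0.0695), 0.42 at passage 4 against ES (adjusted p = 0.0461), 0.07 at passage 24 against ES (adjusted p = 0.719) and -0.35 at passage 24 against passage 4 (adjusted p = 0.132). With no further normalisation Nodal was higher in cEpi than in ES (0.48, adjusted p = 0.0326), the opposite of the direction above, and lower at passage 24 than in cEpi (-0.47, adjusted p = 0.0416). Leaving out ES replicate 2 (adjusted p = 0.0615) or cEpi replicate 1 (adjusted p = 0.0787) also ended the call of Nodal in cEpi against ES.

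Inhba (chromosome 13) encodes the beta A subunit, a dimer of which is activin A. It was at 15.95, 15.92 and 15.93 on the cEpi arrays, 15.45, 15.45 and 15.51 at passage 4, and 14.37, 14.31 and 14.45 at passage 24. The ES arrays read 15.41, 14.95 and 15.94 and spread across the range of both cEpi and passage 4. The passage 24 arrays lay below all others. Inhba was 2.94-fold lower at passage 24 than in cEpi (log2 change -1.56 ± 0.19, adjusted p = 5.61e-05). It was lower at passage 24 than at passage 4 by a log2 change of -1.09 (adjusted p = 0.00181) and than in ES by -1.06 (adjusted p = 0.000994), the latter being -0.70 with median scaling (adjusted p = 0.0576). Inhba passed the threshold in cEpi against ES (0.50 ± 0.19, adjusted p = 0.0438) on overlapping arrays, and each fit that left out an array other than ES replicate 3 ended that call (adjusted p 0.0582 to 0.117), the change being 0.26 without ES replicate 2 and 0.75 without ES replicate 3. The change of Inhba was larger with median scaling (0.99, adjusted p = 0.00975) and with no further normalisation (1.12, adjusted p = 0.0082). Inhba in passage 4 against cEpi gave -0.46 (adjusted p = 0.0667), and passed without ES replicate 2 (adjusted p = 0.00841) or ES replicate 3 (adjusted p = 0.00476), and with no further normalisation (-0.89, adjusted p = 0.0329). That change also passed with only the groups compared in the fit (adjusted p = 0.000345). Passage 4 against ES gave 0.04 (adjusted p = 0.888). The fibroblast sums were also highest in cEpi and lowest at passage 24, and their part in the Inhba values was not tested.

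Furin (chromosome 7) encodes a proprotein convertase of the secretory pathway, which cleaves the precursors of TGF-beta family ligands among many others. It was at 16.32, 16.27 and 16.45 on the cEpi arrays and 15.20, 15.21 and 15.26 at passage 4. It was at 14.38, 14.25 and 14.45 in ES and 13.45, 13.52 and 13.45 at passage 24. No group overlapped another, and each step in the order exceeded the spread within groups of 0.04 to 0.10 (SD). Furin was 3.97-fold higher in cEpi than in ES (log2 change 1.99 ± 0.07, adjusted p = 1.38e-08). It was 2.18-fold lower at passage 4 than in cEpi (-1.13, adjusted p = 8.89e-07) and 7.32-fold lower at passage 24 than in cEpi (-2.87, adjusted p = 7.59e-10). Passage 4 stayed above ES, by 0.86 (adjusted p = 7.31e-06), while passage 24 was below ES, with a log2 change of -0.88 (adjusted p = 4.18e-06), and below passage 4, with -1.75 (adjusted p = 1.32e-07). Furin therefore passed in both comparisons that lie within a file layout, and it kept its direction and call under every alternative run, although the change at passage 24 against ES was smaller with median scaling (-0.48, adjusted p = 0.0394). Furin is made by most cell types, fibroblasts included, and the fibroblast sums were likewise highest in cEpi and lowest at passage 24, while those of ES and passage 4 overlapped. Their part in the Furin values was not tested.

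Tdgf1 (chromosome 9) encodes Cripto, the membrane-anchored co-receptor through which Nodal binds its receptors, and is itself a marker of pluripotent cells. It was at 19.71, 19.74 and 20.07 on the ES arrays, 19.42, 19.40 and 19.17 at passage 24, 18.66, 18.81 and 18.73 at passage 4, and 18.48, 18.52 and 18.50 in cEpi. No group overlapped another, and cEpi and passage 4 lay closest together. Tdgf1 was among the brightest probes, with 135 to 460 probes above it per array. It was lower in cEpi than in ES by a log2 change of -1.34 ± 0.11 (adjusted p = 2.40e-06) and 1.77-fold higher at passage 24 than in cEpi (0.83, adjusted p = 7.16e-05). It was lower at passage 4 than in ES (-1.11, adjusted p = 1.79e-05) and higher at passage 24 than at passage 4 (0.60, adjusted p = 0.0019). All 4 of these comparisons cross the file layouts, and the order of Tdgf1 follows the layouts, with ES and passage 24 above passage 4 and cEpi, so layout and group cannot be told apart in them. With no further normalisation Tdgf1 changed by -0.81 in cEpi against ES and by 0.54 at passage 24 against cEpi (adjusted p = 0.00224 and 0.0233). Within a layout, Tdgf1 at passage 4 was 0.23 above cEpi (adjusted p = 0.0909). That change passed without ES replicate 3 (adjusted p = 0.0242) and with only the groups compared in the fit (adjusted p = 0.0124). Passage 24 was below ES (-0.51, adjusted p = 0.00218), a difference that was -0.20 with median scaling (adjusted p = 0.305). The mouse genome holds processed copies of Tdgf1, and the probe's sequence was not used here, so some of the signal may not be from the gene itself.

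Acvr2a and Acvr2b encode the type II receptors that bind activins and Nodal and phosphorylate the type I receptor. Acvr2a (chromosome 2) was at 11.55, 11.90 and 11.67 in ES, 11.77, 11.61 and 11.84 in cEpi, 11.55, 11.74 and 11.59 at passage 4, and 10.67, 10.83 and 11.07 at passage 24. The first 3 groups overlapped and the passage 24 arrays lay below them all. Acvr2a was 1.84-fold lower at passage 24 than in cEpi (log2 change -0.88 ± 0.12, adjusted p = 0.000141, and -1.42 with no further normalisation), and was also lower there than at passage 4 (-0.77, adjusted p = 0.00107) and than in ES (-0.85, adjusted p = 0.000228). The last difference, the only one of the 3 within a layout, was -0.39 with median scaling (adjusted p = 0.062). The difference of Acvr2a between cEpi and ES was 0.03 with a 95% interval of -0.25 to 0.31 (adjusted p = 0.845), but 0.83 with median scaling (adjusted p = 0.000929). Passage 4 against cEpi gave -0.11 (adjusted p = 0.476), and -0.46 with median scaling (adjusted p = 0.0364).

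Acvr2b (chromosome 9) was at 14.91, 14.82 and 15.60 in ES, 14.88, 14.97 and 14.92 in cEpi, 14.43, 14.33 and 14.21 at passage 4, and 14.50, 14.36 and 14.65 at passage 24. Both rEpiES groups overlapped each other and lay below all ES and cEpi arrays. The Acvr2a arrays at passage 4, at 11.63 ± 0.10 (SD), overlapped those of cEpi, at 11.74 ± 0.12. Acvr2b was lower at passage 4 than in cEpi (log2 change -0.60 ± 0.18, adjusted p = 0.0173), although not without passage 4 replicate 3 (adjusted p = 0.058) or cEpi replicate 2 (adjusted p = 0.0531), and by -1.05 with no further normalisation (adjusted p = 0.0133). At passage 24 it gave -0.42 against cEpi (adjusted p = 0.0668), which passed without ES replicate 2 (adjusted p = 0.0466) or ES replicate 3 (adjusted p = 0.00228). That change also passed with only the groups compared in the fit (adjusted p = 0.00602), array weights (adjusted p = 0.000895), detection on all 12 arrays (adjusted p = 0.039) and no further normalisation (-0.76, adjusted p = 0.048). With median scaling it did not pass (-0.57, adjusted p = 0.093). Against ES, Acvr2b was lower at passage 4 (-0.79, adjusted p = 0.00446) and at passage 24 (-0.60, adjusted p = 0.0163), and with median scaling neither passed (-0.48 and -0.21, adjusted p = 0.171 and 0.532). Without passage 24 replicate 2 the latter gave -0.53 (adjusted p = 0.0585), and without ES replicate 3 it gave -0.36 (adjusted p = 0.0111). The rEpiES groups did not differ from each other beyond the spread (0.19, adjusted p = 0.465), and neither did cEpi and ES (-0.19, adjusted p = 0.388), where ES replicate 3 stood at 15.60 and the change was 0.06 without it.

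Lefty2 (chromosome 1) encodes a secreted antagonist that blocks Nodal and its co-receptor, and is a direct target of the pathway. It was at 15.25, 15.48 and 15.45 in ES, 17.12, 17.11 and 17.05 in cEpi, 16.87, 16.75 and 16.70 at passage 4, and 16.53, 16.58 and 16.68 at passage 24. The ES arrays lay at least 1 log2 unit below all others, and no group overlapped another. Lefty2 was 3.26-fold higher in cEpi than in ES (log2 change 1.70 ± 0.08, adjusted p = 6.81e-08). Both rEpiES groups stayed above ES, by 1.38 at passage 4 (adjusted p = 7.93e-07) and by 1.20 at passage 24 (adjusted p = 1.08e-06). Lefty2 was lower than in cEpi by a log2 change of -0.32 at passage 4 (adjusted p = 0.00639, or 0.0569 with no detection filter) and of -0.50 at passage 24 (adjusted p = 0.000342). These changes of Lefty2 were larger with no further normalisation, at -0.73 (adjusted p = 0.00535) and -0.79 (adjusted p = 0.00272), and with median scaling the first was -0.52 (adjusted p = 0.0163). Passages 4 and 24 did not differ beyond the spread (-0.17, adjusted p = 0.122). The change at passage 24 against ES lies within a layout, and Lefty2 was the only one of the 7 genes called higher there under quantile normalisation. Lefty1 and Lefty2 are neighbouring, nearly identical genes, and the probe's sequence was not used here, so signal of Lefty1 may be included.

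**Figure D3:**
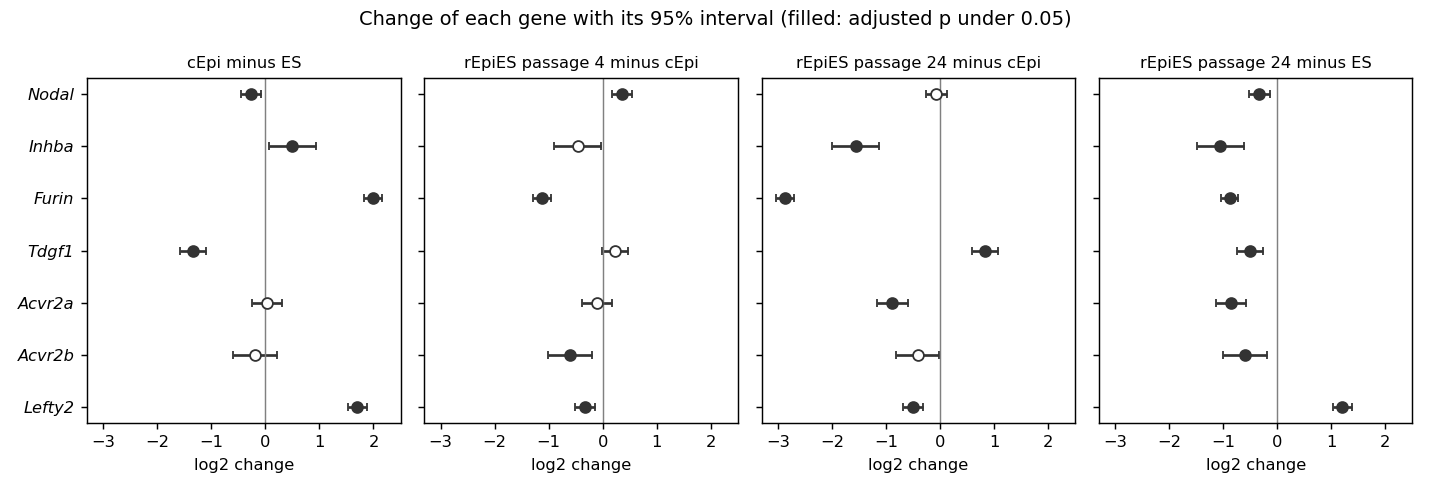
Log2 change of each of the 7 genes with its 95% interval in 4 comparisons, filled where the adjusted p is under 0.05. Furin and Lefty2 are higher and Tdgf1 lower in cEpi than in ES (1.99, 1.70 and -1.34), and at passage 24 against ES Lefty2 (1.20) is the only gene above 0, whereas Nodal turned to 0.07 with median scaling.

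Counted together, the 7 genes were called about as often as other genes in most comparisons. In cEpi against ES 3 were higher (Furin, Inhba and Lefty2) and 2 lower (Tdgf1 and Nodal), where 69.4% of 8812 tested genes were called, 40.6% higher and 28.8% lower. At passage 4 against cEpi 1 was higher (Nodal) and 3 lower (Furin, Acvr2b and Lefty2), beside 59.6% of genes called, 29.1% higher and 30.5% lower. At passage 24 against cEpi 1 was higher (Tdgf1) and 4 lower (Furin, Inhba, Acvr2a and Lefty2), beside 69.7% called, 34.3% higher and 35.4% lower. Neither count stands apart from that background, and in both comparisons with cEpi the median change of the 7 genes was below that of all genes, at -0.32 against -0.03 for passage 4 and -0.50 against -0.01 for passage 24. At passage 4 against ES 2 were higher (Furin and Lefty2) and 2 lower (Tdgf1 and Acvr2b), beside 57.1% called, 32.6% higher and 24.5% lower. At passage 24 against ES all 7 were called, with only Lefty2 higher and 6 lower, beside 61.9% called, 33.8% higher and 28.1% lower. The median there was -0.60 against 0.08 for all genes, but with median scaling only 2 of the 7, Furin and Lefty2, were called. At passage 24 against passage 4 Tdgf1 was higher and Furin, Inhba, Acvr2a and Nodal were lower, beside 38.3% called, 18.4% higher and 19.8% lower. The comparisons share groups, so their counts are not independent.

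Of the wider pathway, 66 genes sorted by role, 52 were named and 50 were tested, the 7 included (Mstn and the type I receptor gene Acvr1b were not detected). In cEpi against ES 34 of the 50 were higher and 8 lower, with a median change of 0.70 against 0.21 for all genes, of which 40.6% were higher and 28.8% lower. At passage 4 against cEpi 12 were higher and 25 lower (median -0.59), beside 29.1% and 30.5% of all genes, and at passage 24 against cEpi 9 were higher and 35 lower (median -1.27), beside 34.3% and 35.4%. Against ES the 50 split at passage 4 into 19 higher and 13 lower, near the 32.6% and 24.5% of all genes. At passage 24 against ES they split into 11 higher and 29 lower, beside 33.8% and 28.1%, and at passage 24 against passage 4 into 4 higher and 30 lower, beside 18.4% and 19.8%. For each role below, the same all-gene shares hold, namely 40.6% higher and 28.8% lower in cEpi against ES, 29.1% and 30.5% at passage 4 against cEpi, and 34.3% and 35.4% at passage 24 against cEpi. The lists are short and were chosen with earlier results of these data known, and their counts are descriptions. Tgfb2, Tgfb3, Inha, Tgfbr3 and Smad3 passed the detection filter only through cEpi, so their higher level there was partly set by the filter. The same holds for such genes among all genes. With detection required on all 12 arrays, 45.1% of called probes were higher in cEpi than in ES, against 55.3% with the filter used.

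Among 7 ligand genes, 5 were higher and 2 lower in cEpi than in ES. Gdf3, a Nodal-related ligand of pluripotent cells, was the opposite of most, with a log2 change of -3.80 in cEpi against ES and changes against cEpi of 3.92 at passage 4 and 3.97 at passage 24 (adjusted p = 6.17e-11). Tgfb3 was at least 8.32-fold higher in cEpi than in ES and at least 10.7-fold lower at passage 24 than in cEpi, as no ES or passage 24 array detected it. Here and below, "at least" refers to detection only and leaves out the spread between arrays (standard error 0.30 log2 units for Tgfb3). Inha, the inhibin alpha subunit that opposes activins, was at least 7.59-fold higher in cEpi than in ES and at least 7.47-fold lower at passage 24 than in cEpi. Tgfb1 was lower than in cEpi at passage 4 (-1.55) and at passage 24 (-2.82), and Tgfb2 was higher in cEpi than in ES (2.45, detected on 1 ES array) and lower at passage 4 than in cEpi (-1.91, detected on 1 passage 4 array). In all, 2 ligand genes were higher and 3 lower at passage 4 than in cEpi, and 1 was higher and 5 lower at passage 24.

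Among 6 convertase and co-receptor genes, 4 were higher and 2 lower in cEpi than in ES, 1 was higher and 2 lower at passage 4 than in cEpi, and 2 were higher and 3 lower at passage 24. Cfc1, the Cripto-related co-receptor Cryptic, ran opposite to Tdgf1 in cEpi against ES, being 11.1-fold higher in cEpi than in ES (3.48 ± 0.23, adjusted p = 6.68e-07), 29.5-fold lower at passage 4 than in cEpi and 94.1-fold lower at passage 24, where 2 arrays detected it. Endoglin (Eng) was higher than in cEpi at passage 4 (1.70) and at passage 24 (1.61). Betaglycan (Tgfbr3) was at least 3.29-fold higher in cEpi than in ES and lower at passage 24 than in cEpi (-2.75, detected on 1 passage 24 array), and the convertase Pcsk7 was higher in cEpi than in ES (1.34, detected on 1 ES array).

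Of 4 receptor genes, 2 were higher in cEpi than in ES and none lower, 2 were lower at passage 4 than in cEpi and 3 at passage 24, with none higher. Next to the activin receptors above, the TGF-beta type I receptor Tgfbr1 was 2.09-fold higher in cEpi than in ES, 2.77-fold lower at passage 4 than in cEpi and 5.15-fold lower at passage 24. The type II receptor Tgfbr2 was at least 6.08-fold higher in cEpi than in ES and lower at passage 24 than in cEpi (-2.33, detected on 2 passage 24 arrays).

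Of 10 extracellular antagonists and carriers, 7 were higher and 2 lower in cEpi than in ES, 2 were higher and 6 lower at passage 4 than in cEpi, and 1 was higher and 9 lower at passage 24. Cer1, a secreted antagonist of Nodal made in anterior endoderm, had a log2 change of 6.60 ± 0.47 in cEpi against ES (1 ES array detected it), was 34.6-fold lower at passage 4 than in cEpi and at least 445-fold lower at passage 24. The changes of Lefty2 against cEpi are given above. Ltbp2 (2.38) and Ltbp3 (1.99), which hold latent TGF-beta in the matrix, were higher in cEpi than in ES, and at passage 24 Ltbp2 (-3.03) and Ltbp1 (-2.70) were lower than in cEpi. Ltbp4 was higher than in cEpi at passage 4 (2.02) and passage 24 (2.56), and the pseudoreceptor Bambi was lower at passage 4 (-1.81), as was Ltbp2 (-2.22).

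The 14 intracellular mediators and regulators showed smaller changes, with 9 higher and 1 lower in cEpi than in ES (median 0.44), 7 higher and 3 lower at passage 4 than in cEpi (median 0.19), and 5 higher and 6 lower at passage 24 (median 0.01). Fkbp1a, which binds type I receptors, was higher in cEpi than in ES (2.16). The effector Smad3 was at least 2.51-fold higher in cEpi than in ES and at least 2.70-fold lower at passage 24 than in cEpi, and the effector Smad2 was lower at passage 24 than in cEpi (-1.20). The ubiquitin ligase gene Smurf1 was higher than in cEpi at passage 4 (1.37) and passage 24 (1.30), and the co-repressor gene Skil at passage 24 (2.27).

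All 9 tested genes known to respond to the pathway were lower than in cEpi at passage 4 (median -1.79) and at passage 24 (median -4.23), against 30.5% and 35.4% of all genes. In cEpi against ES 7 were higher and 1 lower (median 0.86). The list was chosen with earlier results of these data known, so these counts are a description only. Lefty2, a direct target of the pathway that is counted among the antagonists, changed against cEpi by -0.32 at passage 4 and -0.50 at passage 24. The endoderm factor Sox17 was 24.7-fold higher in cEpi than in ES, 29.2-fold lower at passage 4 than in cEpi and lower at passage 24, where only 1 array detected it and the fitted log2 change of -7.74 is set against a level mostly not above background. Lhx1, of the streak and its derivatives, was higher in cEpi than in ES (2.26), lower at passage 4 than in cEpi (-4.16) and at least 117.5-fold lower at passage 24. Eomes was higher in cEpi than in ES (1.40), Foxa2 was lower than in cEpi at passage 4 (-3.57) and passage 24 (-6.10, detected on 1 array), Fgf8 was lower at passage 4 (-1.83) and Mixl1 at passage 24 (-4.54). Sox17 and Foxa2 are also on the endoderm list, whose sum, in which Sparc weighed most, was highest in cEpi and lowest at passage 24. Otx2 is on the post-implantation list. The part of endoderm cells and of fibroblasts in these counts was not tested. Of 19 fibroblast genes tested 18 were higher in cEpi than in ES, beside 40.6% of all genes. Against cEpi 16 were lower at passage 4 and 17 at passage 24, beside 30.5% and 35.4% of all genes. Among these, Fap passed the detection filter only through cEpi, so its direction was partly set by the filter.

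**Figure D4:**
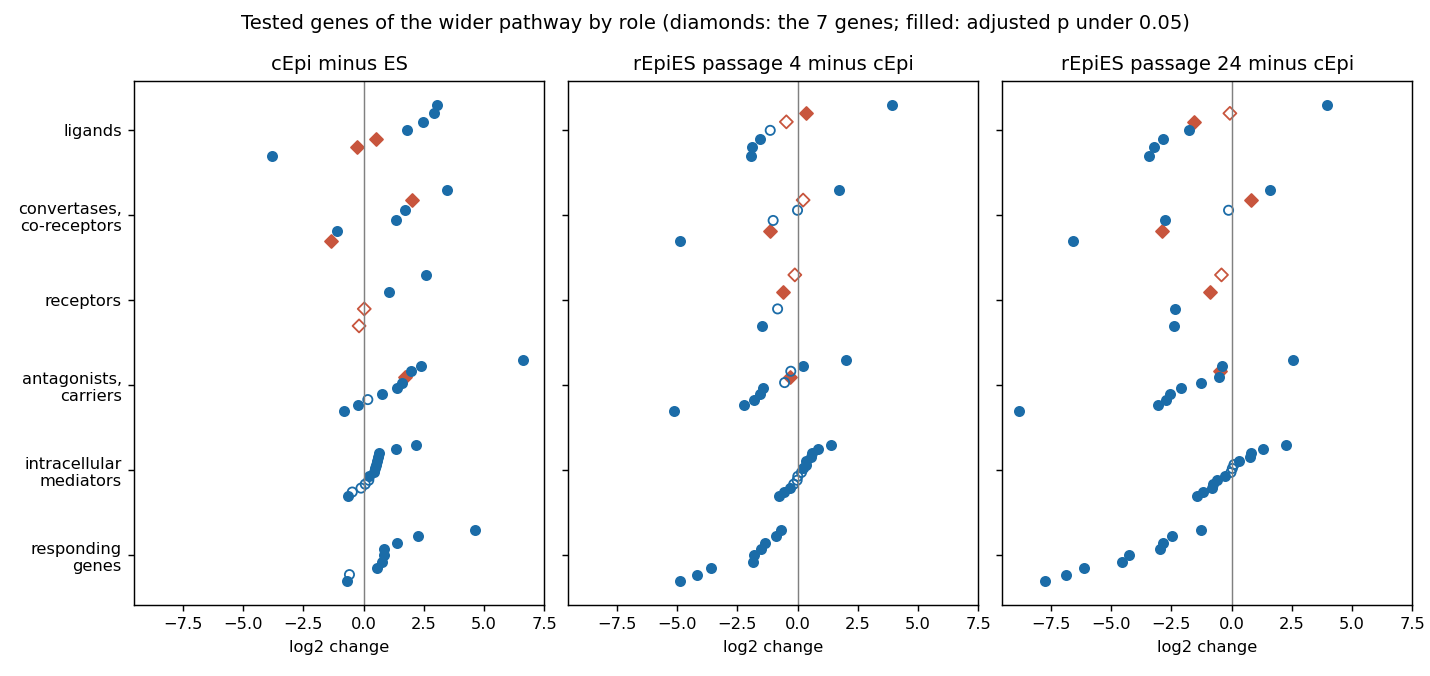
Log2 change of the 50 tested genes of the wider pathway in 3 comparisons, a point per gene grouped by role, with diamonds for the 7 genes and filled points where the adjusted p is under 0.05. The 9 responding genes all lie below 0 at passage 4 and passage 24 against cEpi, while Gdf3 stands at 3.92 and 3.97 among the ligands.

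Genes with the most similar profile were found by the root mean square difference of log2 values over the 12 arrays, each gene centred on its own mean. For Furin they were Gsn (0.136), Col6a1 (0.149) and Tnfrsf12a (0.150), against a root mean square of 1.06 for Furin's own profile, and Col6a1 is on the fibroblast list. For Lefty2 they were Tmed4 (0.114), Bri3 (0.126) and Pcolce (0.130), and for Inhba Vmac (0.168), Nfkb2 (0.170) and Trim8 (0.180). For Tdgf1 they were Nbn (0.0907), Pdzd3 (0.108) and Sf3b1 (0.121), for Acvr2a Trpm7 (0.142), Epn1 (0.158) and Zfp36l1 (0.162), and for Acvr2b Gde1 (0.145), Abhd17c (0.156) and Chmp5 (0.172). Nodal, whose own profile had a root mean square of only 0.193, lay nearest to Naa35 (0.0845), Arf6 (0.0864) and Rpl7l1 (0.0927). None of the 7 genes was compared with another here, and all points share the same 12 arrays.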

How the data were processed

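RNA from 4 groups of 3 samples was hybridised to 1-colour arrays. The authors deposited a linear signal intensity per probe, a signal-to-noise score, quality codes of unstated meaning and, per the file headers, quantile-normalised values on a log2 scale. Background correction and scanner software: not given in the sources used. In the files of cEpi and passage 4 the headers of score and code are exchanged and were read by content. The deposited log2 values were analysed, and the deposited score called detection at 3 or more. Testing covered the 15235 probes (8812 genes) detected throughout some group of 3. limma 3.58.1 (lmFit, eBayes, two-sided, R 4.3.3) fitted all 12 arrays without a block, with 8 residual and 1.54 prior degrees of freedom and Benjamini-Hochberg adjustment over all probes. The threshold was an adjusted p of 0.05, and the fit was tested on simulated data.

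Symbols came from the platform annotation (14411 probes had 1 symbol, 247 several and 18354 none), and 14402 matched RefSeq GRCm38.p6 by gene ID. The arrays' build is not stated, so only chromosomes are given for genes. Where no array of the dimmer group detected a probe, a fold is a bound ("at least"), set against the higher of the probe's own signal and the lowest detected signal per array. The bound leaves out the spread between arrays, and a true fold may be smaller by that spread. The pathway genes named are those called with at least a 2-fold change, at most 4 per role and comparison, and each member has its 3 nearest genes. Members and lists were chosen with earlier results of these data known. Replicate numbers did not pair the arrays. Other scalings, filters, array sets, array weights, a replicate block and leaving out each array were tried. The number of arrays limits the precision.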

Additional observations from a re-analysis of the deposited data

How the results depend on the processing

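Every change of Furin kept its direction and call under all alternatives, as did those of Lefty2 against ES. The scaling of the arrays mattered most. In cEpi against ES the median change of all probes was 0.15 with quantile normalisation, 0.69 with median scaling and 0.81 with no further normalisation, and the share of called probes that were higher was 55.3%, 82.3% and 86.0%. The same shares were 50.1%, 31.5% and 20.1% for passage 4 against cEpi, 50.3%, 39.0% and 29.7% for passage 24 against cEpi, 52.9%, 80.5% and 76.7% for passage 4 against ES, and 51.4%, 75.9% and 73.1% for passage 24 against ES. In passage 24 against passage 4, 5505 probes were called, against 3498 with median scaling and 2912 with none. With median scaling and no further normalisation, in that order, changes turned to 0.36 and 0.49 for Acvr2b and 0.35 and 0.48 for Nodal in cEpi against ES, to 0.38 and 0.30 for Acvr2a at passage 4 against ES, and to 0.073 and 0.013 for Nodal at passage 24 against ES. At passage 4 against cEpi, no further normalisation turned Tdgf1 to -0.058 and Nodal to -0.13. Of the 7 genes, 2 instead of 7 were called at passage 24 against ES under either scaling, and 26 instead of 40 pathway genes with no further normalisation. The cause was not tested.

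In cEpi against ES 3 genes instead of 5 were called with no detection filter, and 3 with only the groups compared in the fit. With no detection filter 2 instead of 4 were called at passage 4 against cEpi. With only the groups compared in the fit 6 were called there, with Inhba (adjusted p = 0.000345) and Tdgf1 (adjusted p = 0.0124) added. With detection on all 12 arrays 21 instead of 32 pathway genes were called at passage 4 against ES, where fewer genes were tested. Leaving out each array in turn gave 3 to 5 called genes in cEpi against ES, the 3 without ES replicate 2 or without cEpi replicate 1. It gave changes of -0.050 to 0.13 for Acvr2a and -0.33 to 0.061 for Acvr2b in cEpi against ES, and of -0.21 to 0.29 for Inhba and -0.16 to 0.015 for Acvr2a at passage 4 against ES. ES replicate 3 had the lowest array weight, 0.175. Each wider-pathway gene had 1 probe, so the choice among probes changed nothing.

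Replicate numbers did not pair the arrays (correlations of deviations from -0.035 to 0.037). With the replicate block 9927 instead of 10091 probes were called in cEpi against ES, and 5 of the 7 genes as before. No member's call changed with the block in any of the comparisons. The number of arrays limits the precision of the smaller changes, while all 7 probes were well above background on every array.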
